A study of Mus musculus with 145 samples.

Results

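Hair keratins and keratin-associated proteins are the building blocks of the hair shaft, and their genes were followed here in the dorsal skin of mice exposed on a tanning canopy. The genes were chosen by name: every gene whose symbol starts with Krtap, together with 14 hair keratins (Krt31, Krt32, Krt33a, Krt33b, Krt34, Krt35, Krt36 and Krt81 to Krt87). Of these names, 71 were found among the 55416 genes of the deposited table, 13 of them hair keratins and 58 Krtap genes, and Krt85 was not analysed here. Genes with a total of at least 10 counts over all libraries were kept. That left 46 genes, 13 hair keratins and 33 Krtap genes, and set aside 25 names, 9 of which had a total of 0. The 2 genes just inside that limit had 10 counts each, and the nearest ones below it had 9.66 and 8 counts. Of the 46 genes, 18 passed the filter for testing, 12 of the 13 hair keratins (all but Krt86) and 6 of the 33 Krtap genes. These 6 were Krtap3-2, Krtap3-3, Krtap7-1, Krtap8-1, Krtap11-1 and Krtap24-1. The filter asked for a level reached in enough libraries, not for a total alone. Krtap24-1 passed with 225 counts in 20 libraries, and Krtap17-1, with 415 counts in 99 libraries, did not. The 28 genes that were not tested are described by their levels.

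Keratin filaments are built from pairs of an acidic type I chain and a basic type II chain. In the growing hair follicle, dividing matrix cells around the dermal papilla move upward and switch on the hair keratins layer by layer, first in the matrix and precortex and then in the cuticle and the cortex. Keratin-associated proteins are made last and surround the filaments, where many are cross-linked to them through disulfide bonds. Follicles make shaft protein in the growth phase of the hair cycle, anagen, and stop when they regress and rest.

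The canopy held 8 lamps of 100 W, with 96.4% of the output as UVA and 3.6% as UVB. The 145 libraries form 30 groups: 5, 10, 20 or 40 mJ/cm2 or sham exposure, each collected at 0, 6, 24, 48, 72 and 96 h. Each library is a separate animal. There were 5 animals in 25 groups and 4 in the other 5, which are 20 mJ/cm2 at 48 h and the irradiated groups of 96 h. The strain was not given, and the labels name no other treatment or allele in any group.

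Libraries held 0.180 to 64.6 M counts, with a median of 11.1 M. A library of 10 mJ/cm2 at 6 h (0.180 M) and one of 20 mJ/cm2 at 0 h (0.204 M) stood far below the third lowest, 2.69 M. Over all libraries the summed level of 8 epidermal markers was 4137 to 27379 CPM (counts in each 1 M counts), and that of 7 markers of skeletal muscle, which mouse skin holds as a thin layer under the dermis, was 3724 to 57413 CPM. Because whole skin was sequenced, fewer cells of a type and less RNA per cell cannot be told apart. The 46 hair genes together held 0.00219% of all counts. The median library had counts for 11 of them and the range was 0 to 43. Their summed level ran from 0 to 180.1 CPM, with a median of 9.34 CPM.

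Most of these genes lie in clusters. Chromosome 11 holds 25 of the 46 (7 type I keratins and 18 Krtap genes), chromosome 15 the 6 type II keratins and chromosome 16 another 11 Krtap genes, and chromosomes 1 and 10 hold 2 Krtap genes each. The window from 250 bases before to 50 bases after the transcription start was taken from RefSeq (GRCm38.p6, while the counts were made on GRCm39) for 34 of the 46. The letters TATAAA, on either strand, stood in 29 of the 34 windows (85.3%), against 14.2% of the windows of all 27025 genes. On the gene's own strand and starting 25 to 40 bases before the transcription start, where a TATA box lies, they stood in 23 of the 34 windows (67.6%), against 2.13% of all windows. CTTTGAA, the letters of a site for the Wnt effectors Lef1 and Tcf, searched on both strands, stood in 11 windows (32.4%), against 5.27% of all. TGANTCA, the letters of an AP-1 site, also searched on both strands, stood in 6 windows (17.6%), against 7.93% of all. None of the 3 motifs contains another. A match is a description of letters, not a known binding site. The other 12 genes, Krt35, Krt87, Krt33a, Krt83 and Krt81 among them, had no window. Members of 1 family, such as the Krtap4 genes, share the 34 windows, so these are not 34 separate cases.

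The windows of the 3 genes called at 6 h after 40 mJ/cm2 are printed here as a description, with that of Krtap11-1. In 14 of 30 groups the animal highest for Krtap11-1 was the one highest for the other hair genes. The windows were not tested against any change in level. They run 5′ to 3′ on the gene strand, and capitals mark the motifs. Krt32 lies at chr11:100088220-100088519 on the minus strand, with TATAAA 88 and 29 bases before the start and CTTTGAA 247 bases before it. Krtap3-2 lies at chr11:99556804-99557103 on the minus strand, with TATAAA 32 bases and the AP-1 letters 186 bases before the start, and CTTTGAA 18 bases after it. Krt84 lies at chr15:101532771-101533070 on the minus strand. Its 1 match to TATAAA is on the opposite strand, 206 bases before the start, where the gene strand reads TTTATA. Krtap11-1 lies at chr16:89571134-89571433 on the minus strand, with TATAAA 28 bases and CTTTGAA 241 bases before the start.
Krt32: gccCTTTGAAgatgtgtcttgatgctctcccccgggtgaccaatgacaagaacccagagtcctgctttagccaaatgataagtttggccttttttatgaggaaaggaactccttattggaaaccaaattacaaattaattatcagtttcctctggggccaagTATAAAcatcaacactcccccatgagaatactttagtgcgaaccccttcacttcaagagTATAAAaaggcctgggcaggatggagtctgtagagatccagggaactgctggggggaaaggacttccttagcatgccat
Krtap3-2: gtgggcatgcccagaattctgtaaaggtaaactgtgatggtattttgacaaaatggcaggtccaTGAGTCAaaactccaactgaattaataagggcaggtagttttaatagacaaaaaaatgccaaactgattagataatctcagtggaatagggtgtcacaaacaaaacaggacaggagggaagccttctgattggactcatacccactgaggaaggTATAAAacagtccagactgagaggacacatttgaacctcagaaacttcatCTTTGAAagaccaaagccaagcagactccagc
Krt84: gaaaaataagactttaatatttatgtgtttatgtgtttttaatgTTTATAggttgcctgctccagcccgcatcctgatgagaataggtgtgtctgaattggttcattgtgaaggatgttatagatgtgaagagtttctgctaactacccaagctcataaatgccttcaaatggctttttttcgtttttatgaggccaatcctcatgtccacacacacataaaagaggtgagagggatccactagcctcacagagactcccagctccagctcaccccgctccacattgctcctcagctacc
Krtap11-1: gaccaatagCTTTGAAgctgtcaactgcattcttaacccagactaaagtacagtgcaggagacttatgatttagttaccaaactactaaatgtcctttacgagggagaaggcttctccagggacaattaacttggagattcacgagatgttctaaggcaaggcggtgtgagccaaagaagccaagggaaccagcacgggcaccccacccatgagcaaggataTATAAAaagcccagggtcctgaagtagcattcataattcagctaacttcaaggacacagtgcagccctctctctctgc

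Among the type I keratins, Krt35, a keratin of the matrix, precortex and cuticle in human hair, had the highest mean level, 9.74 CPM, but a median of 0.667 CPM and a range of 0 to 130.5 CPM. Krt32, a cuticle keratin in human hair, was steadier. It was detected in 144 of 145 libraries at a mean of 3.53 CPM, a median of 2.91 CPM and a highest value of 15.1 CPM. The cortex keratins of human hair were lower, with mean levels of 0.755 CPM for Krt36, 0.317 CPM for Krt31, 0.328 CPM for Krt33a, 0.118 CPM for Krt33b and 0.101 CPM for Krt34. Per kilobase of spliced transcript, the mean levels of Krt35, Krt32 and Krt36 were 4.07, 2.05 and 0.452 CPM, in the same order.

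The type II keratins were all low. Krt87, whose human counterpart is a pseudogene, had a mean of 0.448 CPM and a highest value of 8.70 CPM. Krt84, known in human from the tongue, had a mean of 0.283 CPM. Mean levels of the cortex keratins Krt83, Krt81 and Krt86 were 0.212, 0.136 and 0.0852 CPM, and that of the cuticle keratin Krt82 was 0.165 CPM, with these places known from human hair. Krt84 was spread more evenly than the others: it was detected in 121 libraries with a median of 0.228 CPM and a highest value of 2.02 CPM. For Krt82, Krt81 and Krt86 the median library held no count.

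The Krtap genes were led by Krtap3-2, which codes for a high-sulfur protein, with a mean of 2.45 CPM, detection in 139 libraries and 2.38 CPM per kilobase. Krtap8-1 and Krtap7-1, of the high glycine-tyrosine class, had means of 0.467 and 0.226 CPM and medians of 0. The high-sulfur genes Krtap11-1 and Krtap24-1 had means of 0.258 and 0.111 CPM, and Krtap24-1 was detected in only 20 libraries. The ultra-high-sulfur gene Krtap17-1 had a mean of 0.184 CPM and was detected in 99 libraries, but it did not pass the filter for testing. In most other Krtap families even the highest member was near the limit of detection, with mean levels from 0.0780 CPM for Krtap13-1, in 31 libraries, through 0.0266 CPM for Krtap22-2 and 0.0232 CPM for Krtap4-16, to 0.00723 CPM for Krtap26-1 and 0.00684 CPM for Krtap12-1, which overlaps the gene Tspear. Between these lay Krtap1-5, Krtap2-4, Krtap6-2, Krtap9-3, Krtap10-10, Krtap14, Krtap15, Krtap16-1, Krtap28-10 and Krtap29-1.

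Together Krt35, Krt32 and Krtap3-2 made up 76.3% of the summed level of the 46 genes, and Krt35 alone 47.3%. In estimated counts, a read that fits several genes is split between them, which gives values that are not whole. Of the values above 0, 17.4% were not whole for Krt35, 54.2% for Krt32, 33.8% for Krtap3-2 and 0% for Krt36, Krt84 and Krtap11-1. The share was 74.0% for Krt87, 74.2% for Krtap3-3 and 79.3% for Krt34. Krt32 overlaps the antisense gene Gm11571, which was at 0 to 1.42 CPM, and Krtap24-1 overlaps Gm49688. How the counting treated strand was not given in the sources used here.

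A few animals held a large part of the signal. The 10 libraries with the highest summed level are 6.90% of all libraries and held 43.4% of the summed level of the 46 genes. They were animals of 5 mJ/cm2 at 72 h (166 CPM), 10 mJ/cm2 at 72 h (180.1 and 136 CPM) and 96 h (96.1 CPM), 20 mJ/cm2 at 48 h (136 and 97.7 CPM) and 96 h (151 and 139 CPM), and sham at 48 h (76.6 CPM) and 96 h (118 CPM). None of the 10 was given 40 mJ/cm2, and all were taken at 48 h or later. They were picked by these genes, so the shares that follow are a description.

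The 10 libraries held most of the summed CPM for 25 of the 46 genes. The share was 58.3% for Krt35, 60.5% for Krt31, 57.1% for Krt87, 67.3% for Krt81, 68.7% for Krtap8-1 and 88.1% for Krtap24-1. It was 19.1% for Krt32, 6.00% for Krtap3-2, 8.84% for Krt84 and 17.0% for Krtap17-1. One animal, 5 mJ/cm2 at 72 h replicate 3, was the highest of all 145 for 19 of the 46 genes. Another, 10 mJ/cm2 at 48 h replicate 3, was the highest for 9 genes with a summed level of 39.5 CPM.

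**Figure D1:**
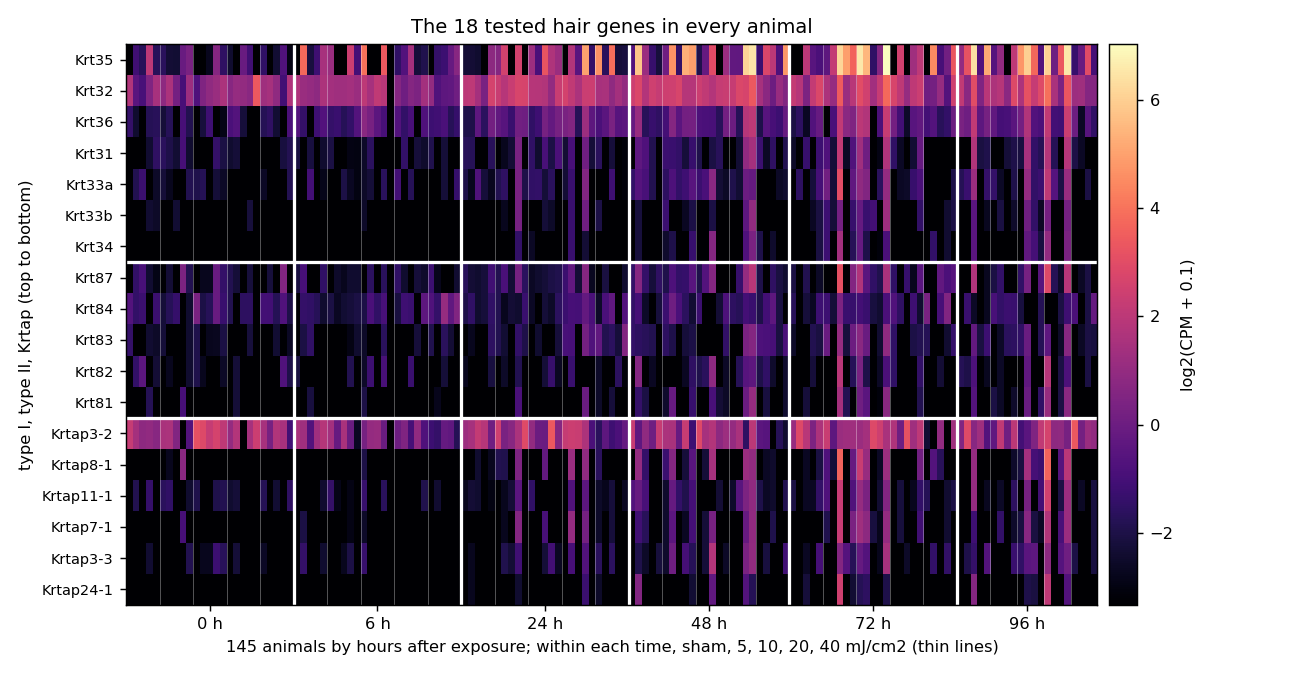
Level of each of the 18 tested hair genes (rows; type I keratins, type II keratins and Krtap genes from top to bottom) in each of 145 animals (columns; by time and, within a time, sham, 5, 10, 20 and 40 mJ/cm2), as log2(CPM + 0.1). Bright columns are single animals in which most of the genes are high together, while Krt32 and Krtap3-2 were detected in 144 and 139 animals.

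Krt35 shows the pattern animal by animal. At 72 h it was at 0, 0, 3.84, 0.593 and 0.463 CPM in the sham animals, at 0.667, 4.48, 71.3, 30.5 and 12.4 CPM after 5 mJ/cm2 and at 94.4, 44.7, 0.256, 1.49 and 130.5 CPM after 10 mJ/cm2. At 10 mJ/cm2, 3 animals stood far above every sham animal and the other 2 lay within the sham range. At 72 h Krt35 was at 0, 5.69, 0, 2.36 and 3.96 CPM after 20 mJ/cm2 and at 0, 22.8, 0.416, 0.997 and 9.69 CPM after 40 mJ/cm2, with 3 animals of each dose within the sham range and 2 above it.

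Large differences between animals were found in sham skin too. At 48 h the sham animals were at 0.529, 55.8, 2.20, 0.297 and 0.123 CPM of Krt35, and at 96 h they were at 1.91, 9.15, 85.3, 0.528 and 36.6 CPM. A level of 10 CPM or more, a limit set after the values were seen, was reached by 0 of 25 animals at 0 h, 3 of 25 at 6 h, 3 of 25 at 24 h, 7 of 24 at 48 h, 7 of 25 at 72 h and 7 of 21 at 96 h. The median over sham and all doses was 0.213, 0.336, 0.609, 1.57, 2.36 and 4.07 CPM at those times. Over 24 to 96 h, 3 of 20 sham animals, 6 of 19 at 5 mJ/cm2, 6 of 19 at 10 mJ/cm2, 5 of 18 at 20 mJ/cm2 and 4 of 19 at 40 mJ/cm2 reached 10 CPM. Sham and every dose thus held animals on both sides of that level.

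**Figure D2:**
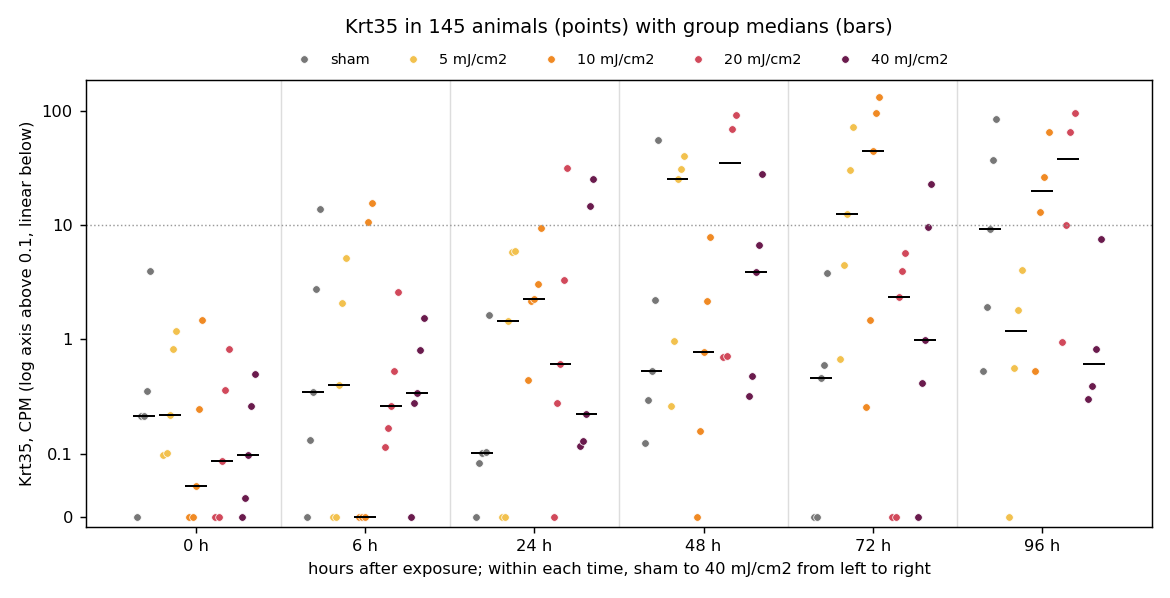
Krt35 (y axis, CPM, logarithmic above 0.1 and linear below) in each of 145 animals by hours after exposure, with sham to 40 mJ/cm2 from left to right within a time; bars are group medians and the dotted line marks 10 CPM. No animal of 0 h lies above the line, and 7 animals each do at 48, 72 and 96 h.

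Krt35 also had the widest spread. Its SD of log2 CPM within groups was 2.49, higher than for 99.8% of all genes tested. The SD was 1.29 for Krtap8-1, 1.22 for Krtap3-2, 1.21 for Krt87 and 0.851 for Krt32, beside a median of 0.706 over all 18677 genes tested. Of the variance of log2 CPM, 47.5% lay between the 30 groups for Krt32 and 38.0% for Krt35, beside a median of 25.1% over all genes tested. With so few animals in a group this share lies well above 0 even where groups do not differ, so it is not the part due to dose and time.

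Comparisons with sham were made at each time with edgeR's quasi-likelihood F test over all 18677 genes, and a gene was called at a Benjamini-Hochberg adjusted p under 0.05. Changes are given on the log2 scale with their standard errors. At 6 h after 40 mJ/cm2, Krt32 and Krtap3-2 fell and Krt84 rose against sham, which is 3 of the 18 tested hair genes. In this comparison 4.89% of all genes were called, 2.14% higher and 2.75% lower.

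For Krt32 at 6 h the animals given 40 mJ/cm2 were at 1.87, 0.505, 0.673, 0.713 and 0.959 CPM, against 3.08, 2.08, 1.96, 1.72 and 2.98 CPM in sham animals. All but 1 of the irradiated animals were below every sham animal, and the change was -1.38 ± 0.35 (adjusted p = 0.0184 in edgeR, n = 5 each). Krtap3-2 was at 0.340, 0.275, 0.785, 0.713 and 0.192 CPM after 40 mJ/cm2, against 2.81, 2.36, 0.523, 2.41 and 3.50 CPM in sham. The groups overlapped through 1 low sham animal, and the change was -2.39 ± 0.67 (adjusted p = 0.0387).

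Krt84 was at 0.511, 0.275, 2.02, 0.713 and 1.34 CPM after 40 mJ/cm2 at 6 h, against 0, 0.278, 0.262, 0.206 and 0.0865 CPM in sham. That rests on 3, 6, 18, 7 and 14 counts in the irradiated animals and on 0, 2, 2, 3 and 2 counts in the sham animals. The lowest irradiated animal lay within the sham range, and the change was 2.59 ± 0.68 (adjusted p = 0.0244). Krt35 was at 0, 0.275, 0.336, 0.815 and 1.53 CPM after 40 mJ/cm2, against 0, 13.8, 0.131, 0.344 and 2.77 CPM in sham (-2.57 ± 1.53, adjusted p = 0.418), with the groups overlapping.

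The calls at 6 h depended on single animals. That of Krt32 was lost without replicate 2 or 3 of 40 mJ/cm2 or replicate 5 of sham (adjusted p up to 0.0816), and that of Krt84 without replicate 3 or 5 of 40 mJ/cm2 or replicate 1, 4 or 5 of sham (adjusted p up to 0.103). Krtap3-2 was called in 2 of 10 such fits, those without replicate 4 of 40 mJ/cm2 or replicate 3 of sham, and lost without any other animal (adjusted p up to 0.127). In a fit of all 145 libraries 1 of the 3, Krt84, was called at 6 h. Library titles end in R1 or R1_001, a difference whose meaning was not given, and each group of 6 h holds 2 libraries titled R1 and 3 titled R1_001. Within R1 and R1_001 the changes were -1.49 and -1.36 for Krt32, -2.70 and -2.05 for Krtap3-2 and 2.81 and 2.28 for Krt84, each in the direction of the pooled change and none called.

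At 24 h after 40 mJ/cm2 edgeR called 0 of the 18 genes (2.92% of all genes, 1.65% higher and 1.26% lower), with 3 at an unadjusted p under 0.05. That p was reached by 3066 of all 18677 genes. DESeq2 called 3, Krt35, Krt83 and Krtap3-2 (6.89% of all genes). Krtap3-2 was at 0.221, 0.663, 0.349, 0.467 and 0.781 CPM after 40 mJ/cm2, against 2.23, 2.70, 4.48, 3.57 and 0.966 CPM in sham. The groups did not overlap, and the change was -2.43 ± 0.73 (adjusted p = 0.0724 in edgeR).

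Krt83 was at 0.737, 0.177, 0.233, 0.117 and 1.39 CPM after 40 mJ/cm2 at 24 h, against 0, 0.0510, 0, 0 and 0.235 CPM in sham (2.87 ± 0.81, adjusted p = 0.0546 in edgeR). Krt35 was at 25.4, 0.221, 14.8, 0.117 and 0.130 CPM after 40 mJ/cm2, against 0.104, 0.102, 0.0862, 0 and 1.64 CPM in sham (4.48 ± 1.82, adjusted p = 0.196 in edgeR). For Krt35, 2 irradiated animals stood above every sham animal and the other 3 lay within the sham range. Krt32 was at 2.73, 2.83, 1.75, 2.57 and 1.90 CPM after 40 mJ/cm2, against 3.89, 3.98, 2.59, 1.15 and 6.11 CPM in sham, with overlap (-0.61 ± 0.33, adjusted p = 0.376). Without replicate 4 of 40 mJ/cm2 or replicate 5 of sham, edgeR called 1 gene at 24 h, Krt83.

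At 48 h Krt32 and Krtap3-2 fell after 40 mJ/cm2, 2 of the 18 genes, where 7.73% of all genes were called, 3.97% higher and 3.76% lower. Krt32 was at 2.70, 1.61, 0.911, 2.03 and 1.34 CPM after 40 mJ/cm2, against 5.29, 6.84, 3.40, 5.53 and 4.56 CPM in sham. Every irradiated animal was below every sham animal, and the change was -1.61 ± 0.28 (adjusted p = 0.000815). It was called in 10 of 10 fits that left out 1 animal of either group (adjusted p up to 0.00454).

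Krtap3-2 was at 0.636, 0.579, 0, 0.203 and 0.0895 CPM after 40 mJ/cm2 at 48 h, against 4.76, 0.680, 1.77, 0.952 and 4.81 CPM in sham. The groups did not overlap, and the change was -3.16 ± 0.86 (adjusted p = 0.0238). The call was lost without replicate 3, 4 or 5 of 40 mJ/cm2 or replicate 1 or 5 of sham (adjusted p up to 0.0881). Within titles ending in R1 and R1_001 the changes at 48 h were -1.64 (called) and -1.57 (not called) for Krt32, and -4.45 and -1.88 (neither called) for Krtap3-2. Krt35 was at 0.318, 6.62, 3.89, 0.474 and 27.7 CPM after 40 mJ/cm2, against 0.529, 55.8, 2.20, 0.297 and 0.123 CPM in sham, with overlap (-0.97 ± 1.67, adjusted p = 0.847).

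At 72 h and at 96 h edgeR and DESeq2 called 0 of the 18 genes at 40 mJ/cm2. With edgeR 1.26% and 0.118% of all genes were called at these times, 1.04% and 0.118% higher and 0.22% and 0% lower, and 2 and 5 hair genes had an unadjusted p under 0.05. That p was reached by 2051 and 885 of all 18677 genes. Krt32 at 72 h was at 0.972, 1.07, 1.97, 0.544 and 5.43 CPM after 40 mJ/cm2, against 4.47, 3.56, 1.24, 4.51 and 6.81 CPM in sham (-1.08 ± 0.61, adjusted p = 0.579). Krtap3-2 at 72 h was at 0.0972, 0, 1.87, 0 and 2.35 CPM after 40 mJ/cm2, against 2.06, 7.36, 3.66, 1.24 and 2.98 CPM in sham (-2.16 ± 0.84, adjusted p = 0.283). The groups overlapped for both genes.

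At 96 h Krtap3-2 was at 10.2, 1.07, 2.10 and 1.84 CPM after 40 mJ/cm2, against 1.34, 7.42, 1.51, 2.38 and 0.553 CPM in sham (0.54 ± 0.80, adjusted p = 1, n = 4 and 5). Krt32 at 96 h was at 2.25, 2.40, 1.45 and 1.45 CPM after 40 mJ/cm2, against 4.21, 1.58, 7.95, 1.32 and 3.76 CPM in sham (-1.01 ± 0.65, adjusted p = 1). Krt35 at 96 h was at 0.300, 0.822, 7.62 and 0.394 CPM after 40 mJ/cm2, against 1.91, 9.15, 85.3, 0.528 and 36.6 CPM in sham (-3.48 ± 1.50, adjusted p = 0.929). All 3 overlapped between the groups.

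At 0 h edgeR and DESeq2 called 0 of the 18 genes at 40 mJ/cm2 (0% of all genes in edgeR), with 1 hair gene at an unadjusted p under 0.05. That p was reached by 832 of all 18677 genes. Krt32 at 0 h was at 2.35, 2.70, 1.77, 0.376 and 3.21 CPM after 40 mJ/cm2, against 3.28, 0.623, 0.426, 1.33 and 2.78 CPM in sham, with overlap (0.43 ± 0.57, adjusted p = 1). Whether the effect of 40 mJ/cm2 at another time differed from that at 6 h was tested in a fit of all 145 libraries, a test chosen after the data were seen. EdgeR called 0 of the 18 genes in each of these 5 contrasts, with 1.71% (0 h), 0.155% (24 h), 0.985% (48 h), 1.11% (72 h) and 1.29% (96 h) of all genes called and 5 results in all at an unadjusted p under 0.05. In the same order that p was reached by 2028, 1076, 1994, 1791 and 1800 of all 18677 genes. The effect at 0 h minus that at 6 h was 1.79 ± 0.70, adjusted p = 0.228 for Krt32 and -2.35 ± 1.10, adjusted p = 0.385 for Krt84. The effect on Krtap3-2 at 96 h minus that at 6 h was 2.93 ± 1.13, adjusted p = 0.244.

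**Figure D3:**
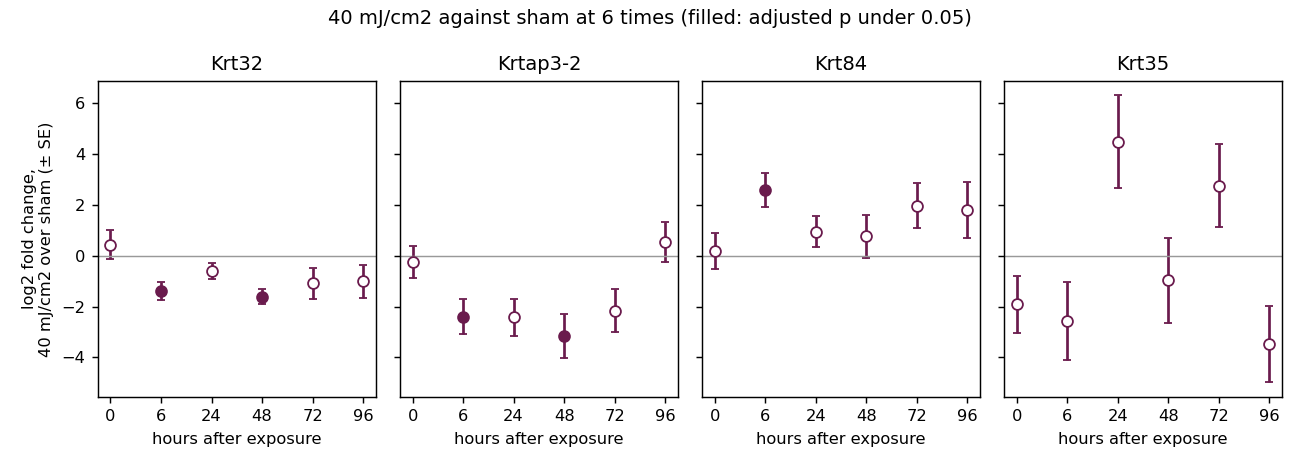
Log2 fold change of 40 mJ/cm2 over sham (y axis, with standard errors) at each of 6 times (x axis, equally spaced) for Krt32, Krtap3-2, Krt84 and Krt35; filled points had an adjusted p under 0.05. Krt32 and Krtap3-2 were called lower at 6 and 48 h and Krt84 higher at 6 h.

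In the same animals, genes of stressed epidermis rose at 40 mJ/cm2. Krt6a, Krt6b and Krt16, keratins of wounded skin, and Sprr1b, a cornified envelope protein, 4 of the 5 genes of that list, were called higher at 6, 24, 48 and 72 h. Krt6b changed by 5.29 ± 0.98 at 6 h and by 8.27 ± 0.81 at 48 h. The summed level of the 5 genes was 870.0 to 1379 CPM after 40 mJ/cm2 at 6 h, against 149.9 to 336 CPM in sham. At 48 h it was 2456 to 7023 CPM after 40 mJ/cm2, against 210.2 to 406 CPM in sham. The part of this shift in the results for the hair genes was not tested.

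Genes of skeletal muscle moved as well, with 0 of 7 called at 6 h, 1 (Tnnt3) called lower at 24 h and 4 (Casq1, Myh4, Pvalb and Tnnt3) called lower at 48 h. Their summed level at 6 h was 11047 to 45451 CPM after 40 mJ/cm2, against 17164 to 34719.9 CPM in sham. At 48 h it was 10231 to 19885 CPM after 40 mJ/cm2, against 24111 to 39713 CPM in sham. Its part in the results for the hair genes was not tested either. Also at 48 h, the fibroblast genes Col1a1 (-0.79 ± 0.22) and Col1a2 (-0.94 ± 0.23), 2 of 5, and the fat cell gene Car3 (-1.09 ± 0.22), 1 of 5, fell, and the basal keratin Krt14 (1.70 ± 0.39), 1 of 8 epidermal genes, rose.

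The lists of other follicle cells stand beside shares of all genes called of 4.89%, 2.92% and 7.73% at 6, 24 and 48 h after 40 mJ/cm2. At 48 h 3 of 13 dermal papilla, 3 of 12 cell cycle, 2 of 10 stem cell and outer root sheath and 2 of 11 transcription factor genes were called, beside 2 of the 18 hair genes. Of 12 genes of the inner root sheath and companion layer, the layers that guide the shaft, 0 were called at 6, 24 or 48 h. Their summed level at 48 h was 102 to 467 CPM (median 171 CPM) after 40 mJ/cm2, against 136 to 1780.5 CPM (median 177 CPM) in sham. Of 15 non-keratin proteins of the hair shaft, 1 fell at 48 h, Hephl1 (-0.71 ± 0.19, adjusted p = 0.0211), and 0 were called at 6 or 24 h. Of 11 transcription factors of the hair matrix and shaft, 2 were called at 48 h: Ovol1 rose (1.03 ± 0.23, adjusted p = 0.00638) and Foxq1, needed for the hair medulla, fell (-0.79 ± 0.21, adjusted p = 0.0177).

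Of 9 pigment cell genes, the melanin enzymes Dct (1.76 ± 0.49, adjusted p = 0.0499) and Tyrp1 (2.66 ± 0.70, adjusted p = 0.0397) rose at 24 h. Of 10 genes of follicle stem cells and the outer root sheath, Lgr6 fell at 6, 24 and 48 h, with changes of -0.83 ± 0.21, -0.75 ± 0.18 and -0.67 ± 0.18, and Cd34, a marker of bulge stem cells, fell at 48 h (-0.61 ± 0.18, adjusted p = 0.0351). Cd34 had a mean of 649 CPM, and in 4 of 30 groups its highest animal was the one highest for the hair genes. Which cells of the skin lay behind its fall was not tested. Of 13 dermal papilla genes, Alpl rose at 6, 24 and 48 h (1.11 ± 0.30, 2.22 ± 0.39 and 1.46 ± 0.34), Inhba at 24 and 48 h (1.52 ± 0.41 and 1.51 ± 0.42) and Crabp1 at 48 and 72 h (2.29 ± 0.32 and 3.07 ± 0.60). Wif1, Corin, Hhip and Vcan of the same list were not called at these times. Of 12 cell cycle genes, Rrm2 and Top2a rose at 24 h, and Birc5, Plk1 and Rrm2 rose at 48 h. Of 12 signals of the growing follicle, which include Shh and Wnt10b, 0 were called at 6, 24 or 48 h. Of 6 sebaceous gland genes, Awat1 rose at 6 h (0.95 ± 0.27), and Scd3 and Mc5r fell at 24 and 48 h.

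At 5, 10 and 20 mJ/cm2 edgeR and DESeq2 called 0 of the 18 hair genes in each of 18 comparisons with sham, with 0 to 13 at an unadjusted p under 0.05. In edgeR that p was reached by 203 to 3986 of all 18677 genes. EdgeR called 0% of all genes in the 12 comparisons of 5 and 10 mJ/cm2 and at 0, 72 and 96 h after 20 mJ/cm2. At 20 mJ/cm2 it called 0.434% of all genes at 6 h (0.161% higher, 0.273% lower), 0.075% at 24 h (0.0696% higher, 0.00535% lower) and 0.482% at 48 h (0.428% higher, 0.0535% lower). The changes, though not called, often lay on 1 side, which is given as a description because some genes passed the filter only through groups in which they were high. The side differed between comparisons. Changes were below 0 for 15 of the 18 genes after 5 mJ/cm2 and for 13 after 20 mJ/cm2 at 6 h. After 5 mJ/cm2 at 96 h they were below 0 for 14 of the 18. At 72 h after 5 mJ/cm2 they were above 0 for 17 of the 18 tested genes, and 13 had an unadjusted p under 0.05. After 10 mJ/cm2 at 72 h they were above 0 for 18 of 18, with 12 at an unadjusted p under 0.05. The lowest adjusted p was 1 in both comparisons, which share the sham animals of 72 h. An unadjusted p under 0.05 was reached by 642 (5 mJ/cm2) and 476 (10 mJ/cm2) of all 18677 genes.

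Krtap8-1 and Krt31 are given by animal as examples, chosen after their values were seen. Krtap8-1 at 72 h was at 0, 0, 0.0591, 0 and 0.132 CPM in sham, at 0.501, 0.112, 12.5, 0 and 0.803 CPM after 5 mJ/cm2 and at 4.91, 2.05, 0, 0.0626 and 2.25 CPM after 10 mJ/cm2. Krt31 at 72 h was at 0.0709, 0, 0.295, 0 and 0.331 CPM in sham, at 0.501, 0.112, 4.30, 0.0618 and 0.502 CPM after 5 mJ/cm2 and at 2.36, 0.946, 0, 0.0313 and 3.18 CPM after 10 mJ/cm2. For both genes the highest animal at 5 mJ/cm2 and the 3 highest at 10 mJ/cm2 were those highest for Krt35. For Krt31, 2 further animals at 5 mJ/cm2 (0.501 and 0.502 CPM) also lay above every sham animal.

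At 96 h after 20 mJ/cm2 the changes were above 0 for 18 of 18 genes, with 2 at an unadjusted p under 0.05. That p was reached by 790 of all 18677 genes. Krt87 was at 7.39, 0.191, 0.0712 and 3.60 CPM after 20 mJ/cm2, against 0, 0, 3.15, 0 and 0.0553 CPM in sham. Krtap24-1 was at 4.16, 0, 0 and 0.527 CPM after 20 mJ/cm2, against 0, 0, 1.44, 0 and 0 CPM in sham. Replicates 1 and 4 of 20 mJ/cm2 and replicate 3 of sham held the high values, so both groups had high and low animals. At 24 h after 20 mJ/cm2 the changes were above 0 for 18 of 18 genes too. Of these, 8 had a p under 0.05 before adjustment, with a lowest adjusted p of 0.407. Over all 18677 genes 1235 had a p under 0.05 before adjustment.

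The 3 genes called at 40 mJ/cm2 were also followed over the lower doses. At 6 h the medians of Krt32 were 2.08, 2.41, 3.68, 1.44 and 0.713 CPM from sham through 5, 10 and 20 to 40 mJ/cm2, with changes from sham of 0.01 ± 0.31, 0.61 ± 0.33 and -0.63 ± 0.33 at the 3 lower doses. The medians of Krtap3-2 were 2.41, 0.860, 1.11, 0.919 and 0.340 CPM, with changes of -0.93 ± 0.61, -0.78 ± 0.67 and -1.28 ± 0.62. Those of Krt84 were 0.206, 0.119, 0.258, 0.309 and 0.713 CPM, with changes of -0.52 ± 0.73, 1.00 ± 0.80 and 0.95 ± 0.73. None of these 9 changes was called.

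At 48 h the medians of Krt32 were 5.29, 5.33, 4.66, 6.65 and 1.61 CPM from sham to 40 mJ/cm2. The changes from sham were -0.10 ± 0.26, -0.22 ± 0.27 and 0.52 ± 0.28 at 5, 10 and 20 mJ/cm2. The medians of Krtap3-2 were 1.77, 2.85, 2.65, 2.36 and 0.203 CPM and those of Krt84 0.123, 0.323, 0.103, 0.275 and 0.159 CPM. For Krt32 and Krtap3-2 the median at 40 mJ/cm2 was below that of sham and of each lower dose.

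**Figure D4:**
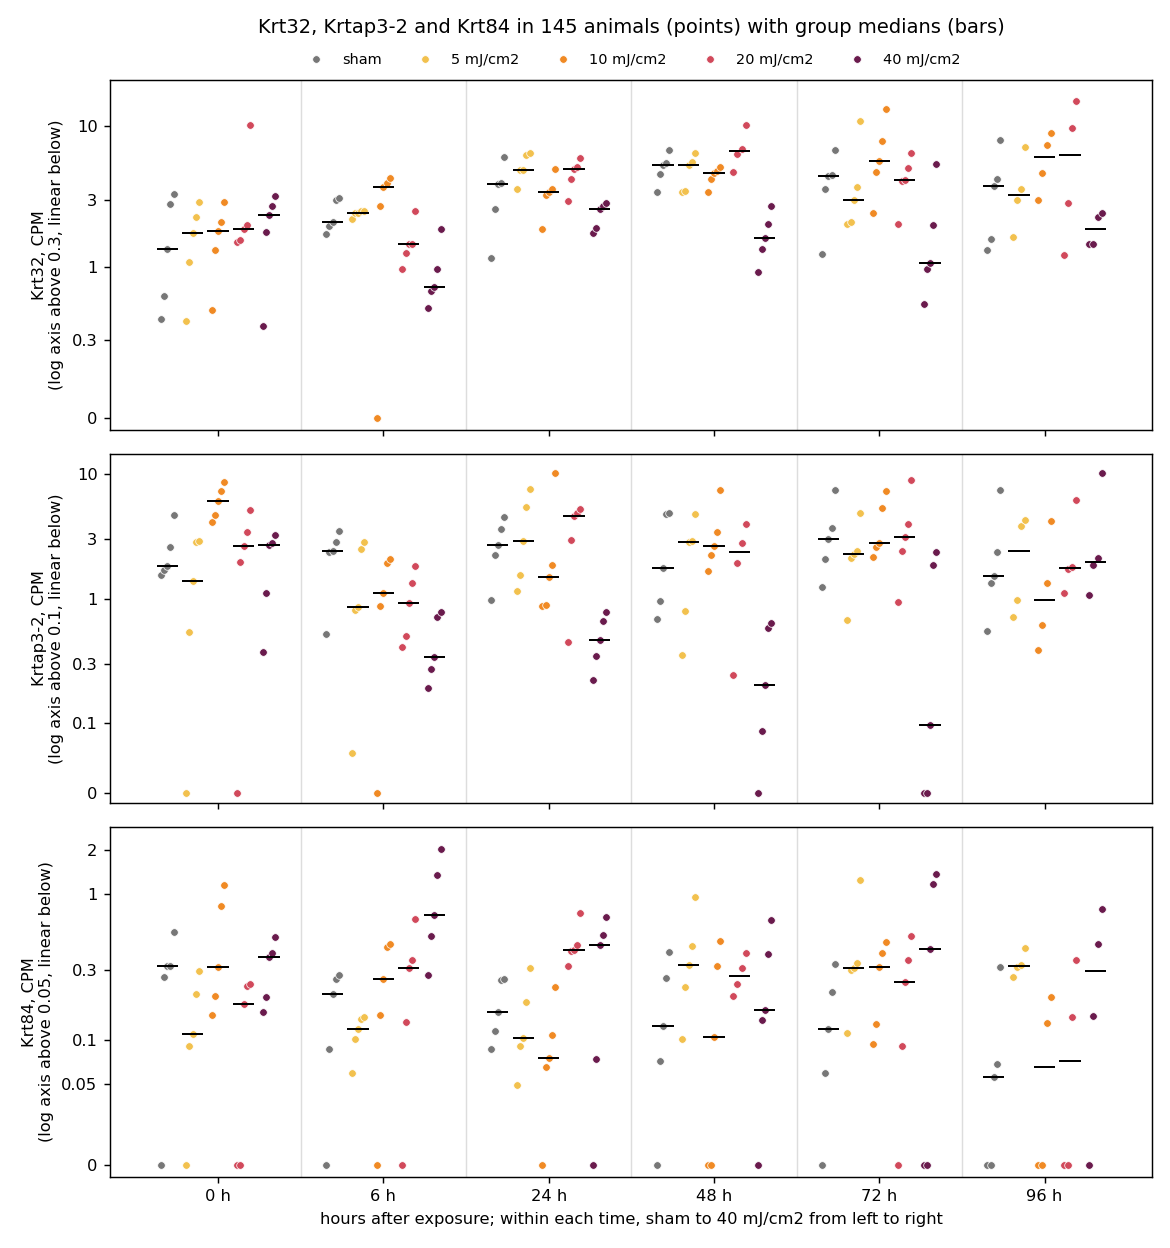
Krt32, Krtap3-2 and Krt84 (y axes, CPM, logarithmic above the value named on each axis and linear below) in each of 145 animals by hours after exposure, with sham to 40 mJ/cm2 from left to right within a time; bars are group medians. At 48 h the 5 animals given 40 mJ/cm2 lie between 0.911 and 2.70 CPM for Krt32.

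The animals given 40 mJ/cm2 were also compared with those given 20 mJ/cm2 at each time. This comparison was chosen after the data were seen, and it shares the animals of 40 mJ/cm2 with the one against sham. At 48 h edgeR called 7 of the 18 genes, all lower at 40 mJ/cm2, where 7.81% of all genes were called, 3.57% higher and 4.25% lower. Some hair genes passed the filter only through groups in which they were high, so this count is no support for an excess of hair genes. At each other time edgeR called 0 hair genes, with 0.00535% (0 h), 0% (6 h), 0.166% (24 h), 0.418% (72 h) and 0.00535% (96 h) of all genes called and 0, 2, 6, 1 and 16 hair genes at an unadjusted p under 0.05. At those times 395, 1008, 1998, 1422 and 1741 of all 18677 genes reached that p. DESeq2 was not run for this comparison.

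Krt32 at 48 h was at 2.70, 1.61, 0.911, 2.03 and 1.34 CPM after 40 mJ/cm2 and at 4.72, 6.90, 6.40 and 10.3 CPM after 20 mJ/cm2 (-2.13 ± 0.29, adjusted p = 0.000118, n = 5 and 4). Krtap3-2 was at 0.636, 0.579, 0, 0.203 and 0.0895 CPM after 40 mJ/cm2 and at 1.92, 2.80, 0.246 and 3.91 CPM after 20 mJ/cm2 (-3.12 ± 0.88, adjusted p = 0.0334). Krtap11-1 was at 0.159, 0.0643, 0.0828, 0 and 0.179 CPM after 40 mJ/cm2 and at 0.0800, 0.600, 1.23 and 1.78 CPM after 20 mJ/cm2 (-3.46 ± 0.96, adjusted p = 0.0318). The groups were apart for Krt32 and overlapped for the other 2 genes through the lowest animal of 20 mJ/cm2.

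Krt36 was at 0.159, 0.579, 0.414, 0.339 and 0.805 CPM after 40 mJ/cm2 and at 0.880, 0.200, 3.45 and 4.15 CPM after 20 mJ/cm2 (-2.29 ± 0.70, adjusted p = 0.0467). Krt33a was at 0, 0, 0, 0.0678 and 0.0895 CPM after 40 mJ/cm2 and at 0.160, 0.100, 0.886 and 0.775 CPM after 20 mJ/cm2 (-3.62 ± 1.01, adjusted p = 0.0322). Krt87 was at 0.159, 0, 0.248, 0.136 and 0.0895 CPM after 40 mJ/cm2 and at 0, 0.300, 1.99 and 3.80 CPM after 20 mJ/cm2 (-3.63 ± 1.12, adjusted p = 0.0476). In all 3 genes replicates 3 and 4 of 20 mJ/cm2 held the high values.

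Krt33b had no count in any animal of 40 mJ/cm2 and 77 counts in those of 20 mJ/cm2, where it was at 0, 0, 0.689 and 1.90 CPM (adjusted p = 0.0280). All 77 counts came from replicates 3 and 4 of 20 mJ/cm2, whose libraries were the deepest of that group, and replicates 1 and 2 were at 0 like the animals of 40 mJ/cm2, so no fold is given. Replicates 3 and 4 of 20 mJ/cm2 are among the 10 highest animals of the series for the hair genes, and replicates 1 and 2 are not. When the animals of 1 replicate number were left out of every group in turn, Krt32 was called in 5 of 5 fits. Krt36 was lost without replicate 3, 4 or 5, Krt33a, Krt33b, Krt87 and Krtap11-1 without replicate 2, 3, 4 or 5 and Krtap3-2 without replicate 1, 2, 4 or 5 (adjusted p up to 0.390).

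Within titles ending in R1, where each group holds 3 libraries, all 7 changes were below 0. The one nearest to 0 was that of Krt36 (-2.37), and Krt32 was called (-2.45). No size is given for Krt33b, which had no count after 40 mJ/cm2. Within titles ending in R1_001 there were 2 libraries of 40 mJ/cm2 and 1 of 20 mJ/cm2, 0 genes were called, and 2 changes pointed the other way, Krt87 (2.40) and Krtap11-1 (0.25).

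Other lists moved in the same comparison. Of the inner root sheath and companion layer genes, 2 of 12 were lower at 40 mJ/cm2 than at 20 mJ/cm2, Krt75 (-1.09 ± 0.33) and Gata3 (-0.74 ± 0.22). Of the non-keratin shaft proteins, 3 of 15 were lower, Padi1 (-2.53 ± 0.71), Psors1c2 (-2.12 ± 0.61) and Vsig8 (-2.95 ± 0.90), as was 1 of 9 pigment genes, Mlana (-1.71 ± 0.42). The summed inner root sheath level was 102 to 467 CPM (median 171 CPM) after 40 mJ/cm2 and 163 to 1720.1 CPM (median 871 CPM) after 20 mJ/cm2. Krt15, Cd34 and Lgr6 among 10 stem cell and outer root sheath genes and Krt1, Krt10 and Lor among 8 epidermal genes were lower, and Fgf7, Fgf10 and Inhba among 13 dermal papilla genes were higher at 40 mJ/cm2, as was 1 of 5 fibroblast genes, Pdgfra (1.08 ± 0.22, adjusted p = 0.00580). Muscle genes were lower, 4 of 7, with a summed level of 10231 to 19885 CPM after 40 mJ/cm2 and 18582 to 37269 CPM after 20 mJ/cm2, and stressed epidermis genes were higher, 4 of 5. The part of these shifts in the results for the hair genes was not tested.

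Sham skin of different times was compared to see how far hair genes vary without irradiation. EdgeR called 0 of the 18 genes among the 6 sham times (4.29% of all genes), with 7 at an unadjusted p under 0.05. That p was reached by 3136 of all 18677 genes. DESeq2 called 2, Krt35 and Krt36 (9.81% of all genes), and edgeR without a term for the ending of the library titles called the same 2 genes (5.24% of all genes). Sham medians of Krt35 were 0.214, 0.344, 0.102, 0.529, 0.463 and 9.15 CPM from 0 to 96 h (adjusted p = 0.0557 in edgeR). Those of Krt32 were 1.33, 2.08, 3.89, 5.29, 4.47 and 3.76 CPM (adjusted p = 0.320) and those of Krtap3-2 1.81, 2.41, 2.70, 1.77, 2.98 and 1.51 CPM (adjusted p = 0.970). Other lists moved over the same sham animals, with 7 of 15 non-keratin shaft proteins called (S100a3, Padi3, Prr9, Psors1c2, Vsig8, Tgm3 and Hephl1), 1 of 12 inner root sheath and companion layer genes (Krt72), 1 of 9 pigment genes (Oca2), 2 of 12 signals (Gli1 and Bmp2), 5 of 8 epidermal, 3 of 5 stressed epidermis, 5 of 6 sebaceous gland and 4 of 7 muscle genes. In the other 6 lists 0 genes were called, and the part of these shifts in the hair genes was not tested. Each time has its own animals, so time after sham exposure, age and the day of collection cannot be told apart.

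In a fit of all 145 libraries, 18 of the 18 tested genes differed among the 30 groups, where 36.8% of all genes did (25.1% with no filter on low counts). Genes such as Krtap24-1 passed the filter through the few animals in which they were high, so this count is no support for a difference. An effect of dose that changed with time was called for 3 of the 18 genes (4.17% of all genes), Krt83 (adjusted p = 0.00841), Krt35 (adjusted p = 0.0208) and Krtap11-1 (adjusted p = 0.0309), with 14 at an unadjusted p under 0.05. That p was reached by 2958 of all 18677 genes. The same filter stands behind this test, so its counts are no support for an excess of hair genes. Genes of the lists passed that filter too, among them Tchhl1 at a mean of 0.159 CPM. In the same test 7 of 12 inner root sheath and companion layer genes, 7 of 15 non-keratin shaft proteins, 5 of 11 transcription factors and 4 of 9 pigment genes were called, as were 5 of 8 epidermal, 4 of 5 stressed epidermis, 3 of 7 muscle, 2 of 13 dermal papilla, 1 of 12 cell cycle, 1 of 5 fibroblast and 1 of 6 sebaceous gland genes. The part of these shifts in the hair genes was not tested. Within titles ending in R1 none of the 3 hair genes was called, and none was within R1_001 (adjusted p of 0.140 for Krt35, 0.193 for Krt83 and 0.137 for Krtap11-1), where Krt87 and Krtap3-2 were called instead. DESeq2 called Krt35 and Krt83 but not Krtap11-1 (adjusted p = 0.146).

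Medians of Krt83 were 0, 0.155, 0, 0.427 and 0.233 CPM at 24 h and 0.0709, 0.834, 0.867, 0.150 and 0.0906 CPM at 72 h, from sham to 40 mJ/cm2. Medians of Krt35 were 0.102, 1.44, 2.26, 0.609 and 0.221 CPM at 24 h, 0.529, 25.5, 0.773, 35.1 and 3.89 CPM at 48 h, 0.463, 12.4, 44.7, 2.36 and 0.997 CPM at 72 h and 9.15, 1.19, 19.8, 37.8 and 0.608 CPM at 96 h. When the animals of 1 replicate number were left out, Krt35 was lost without replicate 1, 4 or 5, Krt83 without replicate 1, 2, 3 or 4 and Krtap11-1 without any of the 5 (adjusted p up to 0.490).

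Which other genes were high in the same animals was counted over the 30 groups. For each gene, the count is the number of groups in which its highest animal is the one highest for the hair genes, with a hair gene's own level left out. Among the 18659 other genes tested the median was 6 groups, the 95th percentile 12 and the 99th percentile 15. Among the hair genes, Krtap3-3 had 17, Krt31 had 15, Krt36, Krt82, Krt87 and Krtap11-1 had 14 each, Krt35 had 12, Krt32 had 10, Krt84 had 9 and Krtap3-2 had 4. These counts are a description with no test, and the genes share libraries and depth.

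Inner root sheath and companion layer genes had a median of 16.5 groups, the highest of the 14 lists. Krt25 and Krt27, keratins of that sheath, had 22 each, which was the highest count of any gene tested, and Krt73 had 21. Krt25 ranged from 0 to 684 CPM over the 145 animals. Pigment cell genes had a median of 16, with 18 each for Dct, a melanin enzyme, and Mlana and Pmel, melanosome proteins.

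Non-keratin proteins of the shaft had a median of 14, led by S100a3, a calcium-binding protein of the cuticle (21 groups), Padi3, an enzyme that turns arginine into citrulline in hair proteins (19), and Prr9 (18). Transcription factors of the matrix and shaft had a median of 13, with 18 for Msx1 and 16 each for Msx2, Vdr and Hoxc13, an activator of hair keratin genes. Signals of the growing follicle had a median of 12, led by Dkk1 (16) and Shh (15), followed by Edar, Gli1 and Wnt10b (14 each). Cell cycle genes had a median of 12, led by Birc5 (14).

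Dermal papilla genes had a median of 10, with 16 for Wif1 and 14 each for Corin, Hhip and Vcan, and stem cell and outer root sheath genes had a median of 8, with 11 for Lhx2. In lists of cells outside the growing follicle the medians were at or under that of all genes. They were 6 for stressed epidermis (with 11 for Krt17, which follicles also make), 5.50 for epidermis (9 for Krt14), 5 for fibroblasts (7 for Pdgfra), 5 for muscle (6 each for Acta1, Ckm and Mylpf), 4 for the sebaceous gland (7 for Awat2) and 3 for fat cells (6 for Car3).

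**Figure D5:**
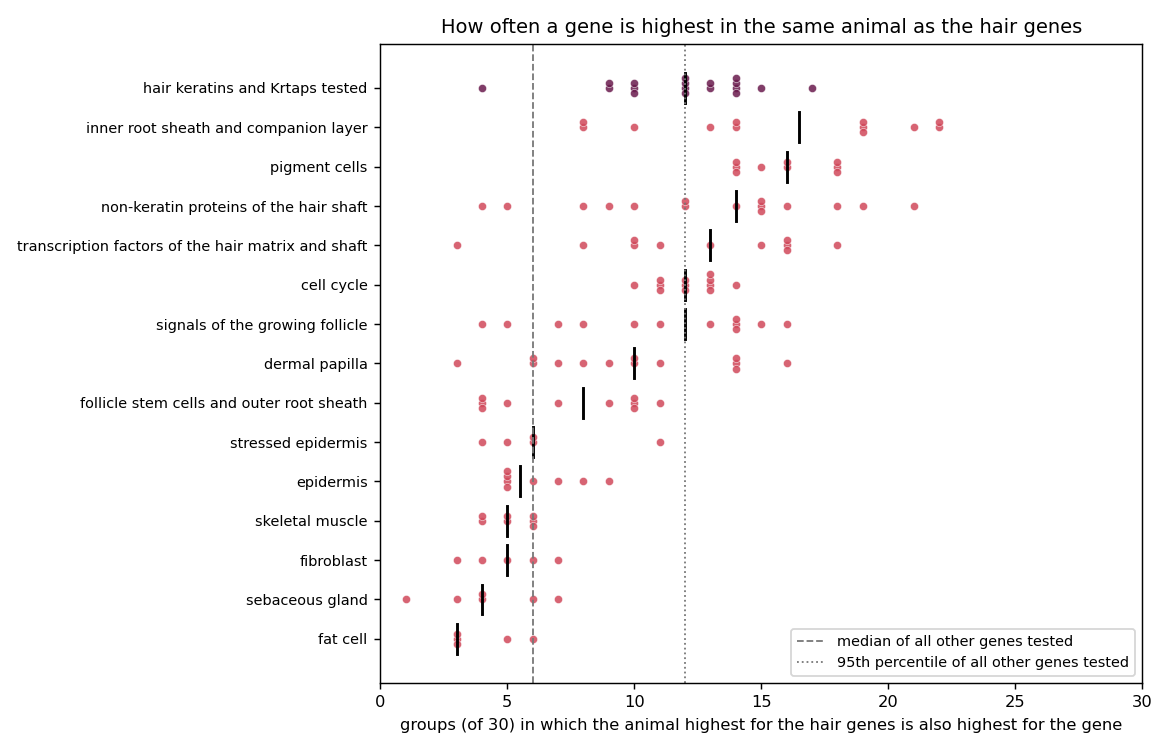
Number of groups, of 30, in which the animal highest for the hair genes is also highest for a gene (x axis), for the 18 tested hair genes and for the genes of 14 lists (rows); each point is a gene, bars are list medians, and the dashed and dotted lines mark the median (6) and the 95th percentile (12) of all other genes tested. The medians of the inner root sheath, pigment cell and shaft protein lists lie at 16.5, 16 and 14, and those of muscle, sebaceous gland and fat at 5, 4 and 3.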

How the data were processed

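RNA from mouse dorsal skin was made into stranded libraries and sequenced as single reads, per the labels' protocols. The authors deposited estimated counts per Ensembl gene, 12.6% of which were not whole. STAR 2.7.10a, the build GRCm39, fastp 0.23.0 and bcl2fastq 2.20.422 are listed per the submitters' processing notes, as is DESeq2 1.36.1. The counting program, the annotation and the use of strand were not given in the sources used here. Of 55416 genes, 52083 were given a symbol.

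From these, estimated counts were rounded for edgeR 4.0.16 (R 4.3.3, limma 3.58.1). With filterByExpr over the 30 groups, 18677 genes were tested. At each time the 5 dose groups were fitted together, with TMM scaling and a term for the title ending (R1, 74 libraries, or R1_001, 71 libraries). The quasi-likelihood F test was used with Benjamini-Hochberg adjustment within each comparison and a threshold of 0.05. Standard errors are the size of the log2 change divided by the root of F. Levels are given as CPM, with library sizes scaled by TMM, and log2 CPM used a prior count of 2. The fit was tested on simulated data. The changes set there lay in genes with higher counts than most of the hair genes, so that test says little about genes at these levels. Groups came from the labels, which number animals one by one, and replicate numbers follow the order of deposit. Each animal gave 1 library, so p-values measure the spread between animals.

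The hair genes and the lists were chosen with earlier results of these data known. Named were the hair keratins, the highest member of each Krtap family, called genes, and from each list the 3 genes most often highest in the same animal as the hair genes and those called. Genes with predicted symbols were counted and not named. Alternatives were DESeq2 1.42.0, median-ratio size factors, no filter beyond a total count of 10, no title-ending term, a robust fit, each title ending alone, no libraries under 1 M counts, 1 fit of all libraries and leaving out animals. Reads of near-identical Krtap genes and keratins, and of genes that overlap others, are uncertain.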

Additional observations from a re-analysis of the deposited data

Results flagged for a closer look

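In the dose groups of Krt35, Krt32, Krtap3-2 and Krt84, 7 of 120 gene and group pairs held an animal far from the others of its group by Dixon's criterion, which chance alone flags in about 1 in 20. Sham at 24 h held a high animal for Krt35, replicate 5 at 1.64 CPM. For Krt32, replicate 5 of 20 mJ/cm2 at 0 h was high at 10.3 CPM in a library of 0.204 M counts, and replicate 5 of 10 mJ/cm2 at 6 h was at 0 in the library of 0.180 M counts. For Krtap3-2 the low animals were replicate 3 of 20 mJ/cm2 at 0 h (0 CPM), replicate 3 of sham at 6 h (0.523 CPM), replicate 5 of 10 mJ/cm2 at 6 h (0 CPM, the library of 0.180 M counts) and replicate 5 of 20 mJ/cm2 at 24 h (0.446 CPM).

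An effect of dose that differed between times was called for Krt83 (adjusted p = 0.00841), Krt35 (adjusted p = 0.0208) and Krtap11-1 (adjusted p = 0.0309). Such an effect was called for 4.17% of all genes. Some hair genes passed the filter only through groups in which they were high, so the 3 calls are no support for an excess. The test was the interaction term of edgeR's fit of all libraries. None of the 3 was called within R1 alone, and DESeq2 did not call Krtap11-1. With 1 replicate number left out, Krt35 was called in 2 of 5 fits, Krt83 in 1 of 5 and Krtap11-1 in 0 of 5. The high groups changed from time to time and held high and low animals side by side.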

How the results depend on the processing

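Over 9 settings and the alternatives for the variance share and the highest animals, 271 of 285 values stayed like the reported one. Most of the values are counts of called hair genes, taken as alike within 1.5 times. They include the 18 comparisons of 5, 10 or 20 mJ/cm2 with sham, where the reported count was 0, so 271 of 285 says little about the calls made. The exceptions follow, and their cause was not tested beyond the smaller number of libraries within 1 title ending. At 6 h after 40 mJ/cm2 the 3 calls became 1 in the fit of all libraries and 0 within R1 or R1_001. At 48 h the 2 became 1 within R1 and 0 within R1_001, and against 20 mJ/cm2 the 7 became 1 and 0, with Krt87 (2.40) and Krtap11-1 (0.25) reversed in R1_001. At 24 h the 0 became 3 with DESeq2 (6.89% of all genes). Among sham times the 0 became 2 with DESeq2 (9.81% of all genes) or without the title-ending term (5.24%). Among the 30 groups the 18 became 29 of the 46 genes with no filter, where 25.1% of all genes were called, and 0 within R1. For the dose effect that changes with time, the 3 became 5 with median-ratio size factors and 0 within R1, and Krt35, Krt83 and Krtap11-1 were also lost within R1_001 (2 other genes were called) and Krtap11-1 with DESeq2 (4 genes called). Except where a share is printed, the share of all genes called in these alternative fits is not given here. The same holds for the fits below that leave out animals. Those counts are thus no result about hair genes in particular.

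Leaving out animals gave 0 to 3 calls at 6 h, 0 to 1 at 24 h and 1 to 2 at 48 h after 40 mJ/cm2, 17 to 18 among the 30 groups and 0 to 3 for the dose effect that changes with time. It gave 0 to 1 among sham times (Krt35, without replicate 2), 0 to 1 at 20 mJ/cm2 at 48 h (Krt36, without replicate 2), and for 40 against 20 mJ/cm2 0 to 1 at 24 h (Krtap3-2, without replicate 5) and 1 to 8 at 48 h. All other comparisons stayed at 0. The median share of variance between groups was 36.7%, and 35.9% with a prior count of 0.5. The median number of groups with the same highest animal was 12, 12 on unscaled totals and 12.5 without libraries under 1 M counts. No paired analysis was possible because the replicate numbers follow the order of deposit and pair no animals. Depth limits most Krtap genes, which did not pass the filter for testing.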
